A study of Chlorocebus sabaeus with 32 samples.

Results

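Genes of the Wnt signalling pathway, most of them acting outside the cell or at its surface, were followed across 32 hippocampal RNA-seq libraries of vervet monkeys (Chlorocebus sabaeus). Their rows were matched by symbol, though the set was chosen with earlier results of these data known. It holds every WNT, FZD, SFRP, RSPO and DKK gene, LRP5 and LRP6, LGR4 to LGR6, WIF1, FRZB, AXIN1, AXIN2 and LEF1. Of 33994 gene rows, 51 matched. These were 19 WNT ligands, 10 Frizzled receptors, 2 LRP co-receptors, 4 R-spondins, 3 LGR receptors, 10 secreted antagonists and 3 intracellular genes.

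Wnt proteins are secreted lipid-modified ligands that bind a Frizzled receptor together with LRP5 or LRP6. In the canonical branch this stabilises β-catenin, which enters the nucleus and drives transcription through LEF1 and related factors. AXIN1 and AXIN2 are scaffolds of the complex that destroys β-catenin, and AXIN2 is itself a widely used target gene of the pathway. R-spondins bind LGR4, LGR5 and LGR6 and raise the amount of Frizzled at the surface, while SFRP, FRZB and WIF1 proteins bind Wnt ligands and DKK1, DKK2 and DKK4 act on the LRP co-receptors. In the hippocampus the pathway patterns the embryonic primordium, is required for the dentate gyrus to form, and regulates the production of granule neurons after birth.

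The study examined how the hippocampal transcriptome changes in development, and its labels place every library in one age class, under 1 year. All libraries hold total RNA of the hippocampus, with no genotype, treatment, sex, exact age or processing batch given. The titles begin with 4 digits (the title prefix), which took 3 values and divide the libraries into block A with 14, block B with 16 and block C with 2, in ascending order of the prefix. Later in each title the letters VMT precede a number, called the title number below. It was below 20000 in all 14 libraries of block A and in 7 of block B, and higher in 9 of block B and both of block C. The labels do not state what the prefix or the number stands for. Each title was taken as 1 animal, though no label says so, and p-values measure the spread between these libraries. Library replicate numbers below only name libraries in order of deposition.

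Library depth, as the sum of counts over gene rows, lay between 9347635 and 19673621 (median 16201657). A marker of dentate granule cells and markers of immature neurons were counted in every library. PROX1, a transcription factor of dentate granule cells, had 19.8 to 187 CPM (counts scaled to library size). DCX, a protein of immature neurons, had 37.1 to 113 CPM. NEUROD1, also used as an immature neuron marker, had 0.902 to 40.5 CPM. In the marker lists 3 libraries stood apart. Replicate 1 of block A had the lowest summed level of 6 dentate granule genes, 128 CPM, where the highest library had 852 CPM. Replicate 2 of block B had the highest summed striatal level, 574 CPM, where the highest of block A had 122 CPM, and also the highest summed thalamic level, 180 CPM. Replicate 8 of block B had the highest summed choroid plexus level, 501 CPM, of which TTR gave 384 CPM. Calls of Wnt genes that change without these 3 libraries are named beside each comparison. Because the tissue was measured in bulk, fewer cells of a type and less RNA per cell cannot be told apart in any value below.

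Of the 51 genes, 40 had a mean of at least 1 CPM. CPM are not corrected for gene length, so the values below order libraries and not genes. Among receptors, FZD3, which also guides axons, had 106 ± 11.9 CPM (mean ± SD, n = 32), and FZD4, a receptor for Norrin as well as Wnt ligands, had 53.8 ± 9.98 CPM. The co-receptor LRP6 had 146 ± 12.9 CPM. Of the ligands, WNT5A, which acts mostly outside the β-catenin branch, had 23.5 ± 6.16 CPM, WNT4 had 21.7 ± 5.38 CPM, WNT10B 18.9 ± 4.92 CPM and WNT7A 17.6 ± 2.83 CPM. The canonical ligand WNT3 had 8.79 ± 2.05 CPM. Among the antagonists, DKK3, a divergent Dickkopf protein, had 507 ± 114 CPM, WIF1 124 ± 42.0 CPM, SFRP1 39.3 ± 11.9 CPM and FRZB 29.5 ± 7.94 CPM. AXIN2 had 42.7 ± 6.31 CPM, AXIN1 29.7 ± 2.75 CPM and LEF1 11.4 ± 2.17 CPM.

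Frizzled receptors not yet given were FZD1 (32.8 ± 3.42 CPM), FZD7 (29.3 ± 6.31), FZD8 (26.5 ± 4.76), FZD9 (6.55 ± 1.17), FZD5 (3.65 ± 0.997) and FZD2 (1.5 ± 0.459). For the R-spondin receptors, LGR4 had 38.2 ± 6.37 CPM and LGR5, a marker of stem cells in several tissues, 5.51 ± 1.42 CPM. Lower ligands included WNT5B with 3.49 ± 0.916 CPM, WNT2B with 3.12 ± 0.654 CPM, WNT8A with 2.43 ± 0.902 CPM and WNT1, a ligand of midbrain patterning, with 2.02 ± 0.66 CPM. The antagonists DKK2 and DKK4 had 6.60 ± 1.69 and 1.53 ± 0.428 CPM. The genes that differed between groups of libraries are given with their ranges below.

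The other 11 genes had mean levels of 0.0667 to 0.828 CPM. They were WNT3A, WNT6, WNT8B, WNT10A, WNT11, FZD10, RSPO1, RSPO4, DKK1, SFRP2 and SFRP5. RSPO4 had no count in 15 libraries, RSPO1 in 4, WNT10A in 3 and WNT8B in 2. Where no read was counted, a level of 3 counts remains possible, or 0.158 to 0.282 CPM depending on the library, for counting error only. RSPO4, WNT8B and WNT10A were thus at or near the detection limit in many libraries.

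The Wnt genes varied more between libraries than most genes did. The median biological coefficient of variation, the spread left after counting noise, was 0.227 over the 40 Wnt genes with a value and 0.157 over all 19959 genes, and 32 of the 40 lay above that median. The ligand WNT2 had 0.591, the R-spondin RSPO3 0.390 and the receptor LGR6 0.357. At the other end AXIN1 had 0.096, LRP6 0.102, FZD1 0.105 and FZD3 0.113. The genes with the widest spread were thus a ligand, an R-spondin and an LGR receptor, and the narrowest were a scaffold, a co-receptor and Frizzled receptors.

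Several of these genes were extreme in the libraries that stand apart. Of 40 ranked Wnt genes, replicate 1 of block A was the highest or lowest library for 14. Replicates 2 and 8 of block B were so for 4 and 5. Replicate 1 of block B, which is not among the 3, was so for 11. WNT2 had 0.282 CPM in replicate 1 of block A and 0.0820 CPM in replicate 2 of block B, against 3.45 to 17.9 CPM in the 29 libraries that did not stand apart. RSPO3, an R-spondin, had 4.89 and 7.05 CPM in the same libraries against 19.5 to 69.0 CPM. WNT4 had 6.40 and 9.92 CPM against 15.8 to 32.3 CPM. The library with few dentate granule transcripts also had the lowest depth (9347635) and the largest share of reads in no gene (67.1%). Its summed immature neuron (1297 CPM) and CA pyramidal (217 CPM) levels were the lowest of the 32. WNT2, RSPO3 and WNT4 were low together in that library and in the library with many striatal transcripts.

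The Frizzled receptor FZD7 had 13.9 and 18.4 CPM in those libraries against 20.2 to 49.5 CPM in the 29. DKK3 had 231 and 266 CPM against 359 to 735 CPM. In the opposite direction, WNT10B had 32.9 and 29.5 CPM against 9.36 to 25.97 CPM, and AXIN1 had 36.3 and 34.3 CPM against 25.2 to 33.5 CPM. Both libraries were the lowest pair of all 32 for 5 of 40 Wnt genes (12.5%), compared with 4.7% of all genes, and the highest pair for 2 of 40 (5%), compared with 2.65%. How much of these values comes from the tissue sampled, from depth or from the share of reads in no gene was not tested.

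**Figure D1:**
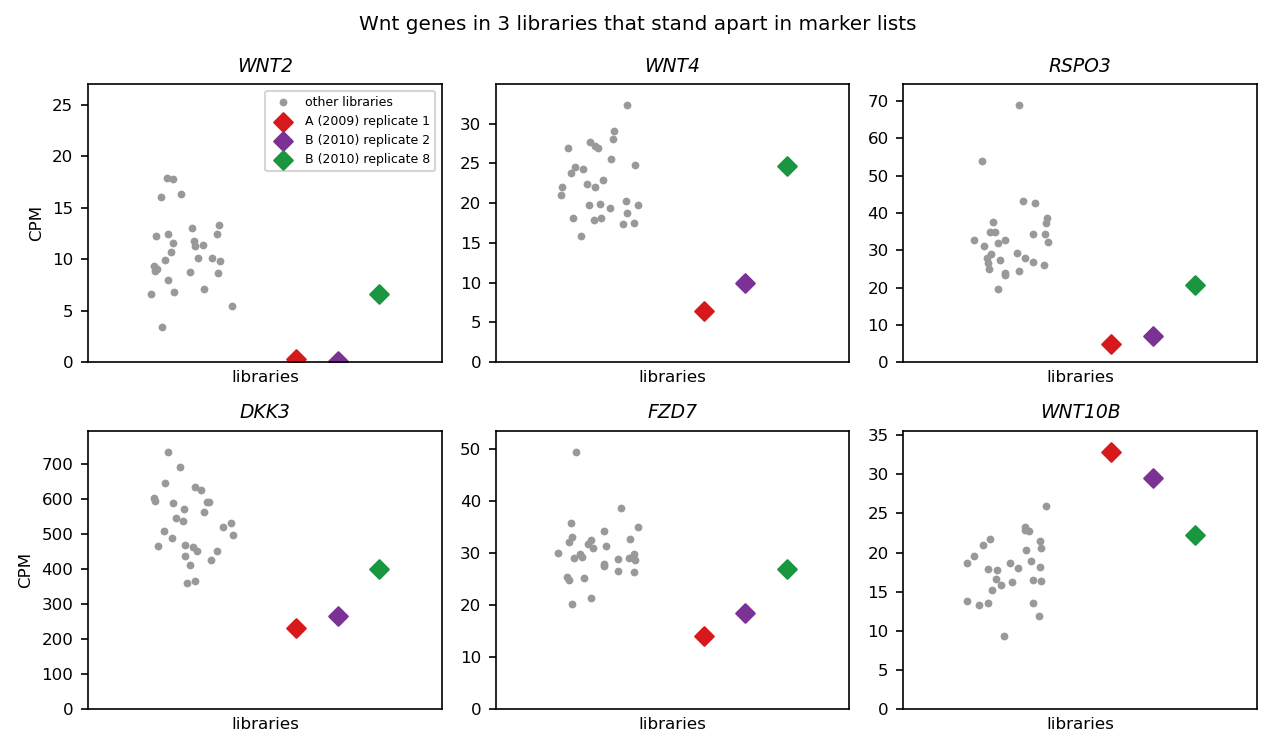
CPM of 6 Wnt genes in each library, with 29 libraries in grey and the 3 libraries that stand apart in marker lists as coloured diamonds; horizontal positions only separate points. Replicate 1 of block A and replicate 2 of block B are the lowest for WNT2, WNT4, RSPO3, DKK3 and FZD7 and the highest for WNT10B.

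The first comparison was between libraries of block B and block A, since the labels hold no grouping besides the title prefix and number. Ligands (WNT9A, WNT9B, WNT16), a receptor (FZD6), a co-receptor (LRP5), an LGR receptor (LGR6) and AXIN2 were higher in block B, while RSPO2 and WIF1 were lower. In edgeR's quasi-likelihood fit, Benjamini-Hochberg adjusted over 23977 genes, 8 of 49 tested Wnt genes rose and 2 fell (20.4%), beside 12.5% of all genes called in either direction, 7.11% up and 5.35% down. The 8 include DKK1, which passed the filter on low counts only through libraries of blocks B and C where it was high. With genes of a mean of at least 1 CPM, a filter blind to the block, 7 of 40 rose and 2 fell. The median difference over the tested Wnt genes was 0.11 on the log2 scale and over all genes 0.01, and 32 of the 49 differences were positive. WNT8B and RSPO4 were not tested for want of counts. The count at an unadjusted p under 0.05 was 15 of 49, beside 6542 of all 23977 genes.

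**Figure D2:**
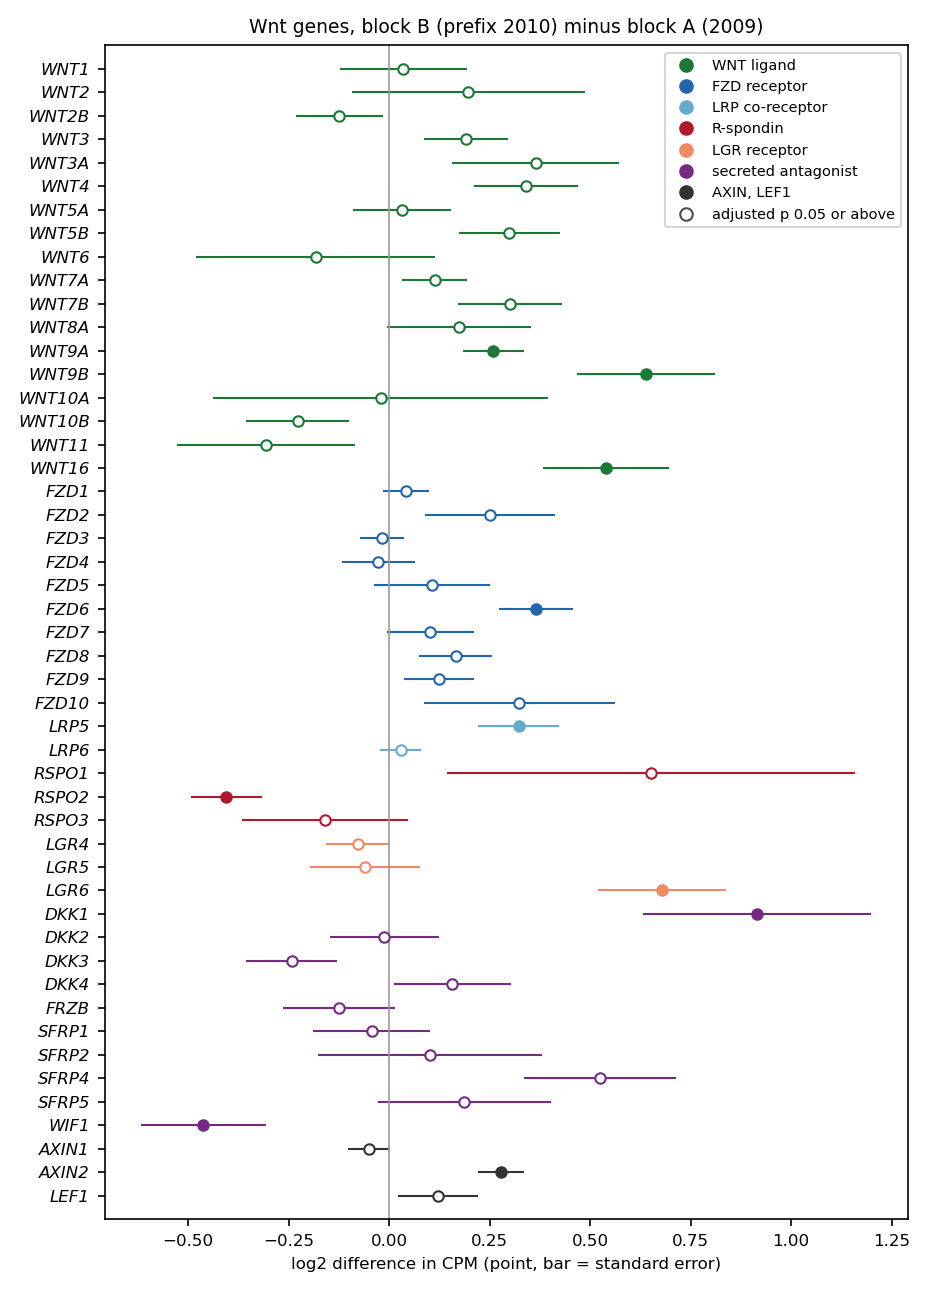
Log2 difference in CPM between block B and block A for the 49 tested Wnt genes, with bars of 1 standard error and colours for the role of each gene. Filled points passed the adjusted threshold: 8 lie above 0 and RSPO2 and WIF1 below it, and the wide bars belong to genes of low level such as RSPO1 and WNT10A.

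Among ligands, WNT9A ran from 7.15 to 11.1 CPM in block A with a median of 9.50, and from 8.92 to 14.2 CPM in block B with a median of 10.9. Its difference was 0.26 ± 0.08 on the log2 scale (SE, n = 14 and 16, adjusted p = 0.0236, edgeR). The ranges overlapped, with 12 of 16 libraries of block B above the median of block A and 8 above its maximum. Without the libraries that stand apart the difference was 0.19 and no longer passed (adjusted p = 0.0746, edgeR).

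The ligand WNT9B, which acts in the kidney and face of the embryo, was low throughout. It ran from 0.753 to 2.01 CPM with a median of 1.29 in block A and from 0.691 to 3.39 CPM with a median of 1.97 in block B. The difference was 0.64 ± 0.17 (adjusted p = 0.0132, edgeR), with 12 of 16 libraries above the median of block A. WNT16, a ligand studied mostly in bone and blood cells, ran from 2.79 to 8.28 CPM with a median of 3.65 in block A and from 3.57 to 9.50 CPM with a median of 6.72 in block B. Its difference was 0.54 ± 0.16 (adjusted p = 0.022, edgeR), and 15 of 16 libraries of block B lay above the median of block A. For both ligands the groups overlapped over much of their range.

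The other 15 tested ligands did not pass. WNT4, with 6.40 to 26.9 CPM in block A and 9.92 to 32.3 CPM in block B, differed by 0.34 ± 0.13 (adjusted p = 0.0745, edgeR), and passed when the libraries that stand apart were left out. The canonical ligands WNT3 and WNT7B differed by 0.19 ± 0.10 and 0.30 ± 0.13, with adjusted p of 0.238 and 0.123. WNT5A, WNT2 and WNT7A had differences of 0.03 ± 0.12, 0.20 ± 0.29 and 0.11 ± 0.08.

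Of the 10 Frizzled receptors, only FZD6, a receptor of planar cell polarity, passed in this fit. FZD6 ran from 8.71 to 14.4 CPM with a median of 11.1 in block A and from 11.7 to 20.1 CPM with a median of 14.3 in block B, and the libraries of block C had 14.8 and 19.7 CPM. All 16 libraries of block B lay above the median of block A, and 7 lay above its maximum. The difference was 0.37 ± 0.09 (adjusted p = 0.00888, edgeR). The other 9 receptors had differences from -0.03 in FZD4 to 0.32 in FZD10, each with an adjusted p of at least 0.239.

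LRP5, one of the pair of Wnt co-receptors, ran from 11.4 to 21.3 CPM with a median of 15.4 in block A and from 14.8 to 26.5 CPM with a median of 19.2 in block B. It differed by 0.32 ± 0.10 (adjusted p = 0.0321, edgeR), with 13 of 16 libraries above the median of block A. The call was lost when any of 7 libraries was left out (replicates 2, 3 and 4 of block A and replicates 11, 12, 14 and 15 of block B). Its partner LRP6 had medians of 144 and 146 CPM and a difference of 0.03 ± 0.05. Whether the co-receptors differ from each other in this respect was not tested.

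LGR6, a receptor for R-spondins, ran from 5.03 to 18.1 CPM with a median of 9.16 in block A and from 8.52 to 28.2 CPM with a median of 14.5 in block B. The difference was 0.68 ± 0.16 (adjusted p = 0.00552, edgeR), and 14 of 16 libraries of block B lay above the median of block A. The related LGR4 and LGR5 differed by -0.08 ± 0.08 and -0.06 ± 0.14 and did not pass.

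RSPO2, a secreted activator that binds the LGR receptors, went the other way. It ran from 12.8 to 29.6 CPM with a median of 21.9 in block A and from 12.5 to 19.9 CPM with a median of 17.1 in block B, and block C had 13.9 and 16.9 CPM. All 16 libraries of block B lay below the median of block A, and 9 of 14 libraries of block A lay above the maximum of block B. RSPO2 fell by 0.41 ± 0.09 on the log2 scale (adjusted p = 0.00324, edgeR). RSPO3, with medians of 32.7 and 27.1 CPM, differed by -0.16 ± 0.21.

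Among secreted antagonists, WIF1, which binds Wnt ligands directly, ran from 81.5 to 211 CPM with a median of 141 in block A and from 50.2 to 184 CPM with a median of 102 in block B. WIF1 fell by 0.46 ± 0.16 on the log2 scale (adjusted p = 0.0455, edgeR), and 13 of 16 libraries lay below the median of block A. The groups overlapped widely, and the call was lost in 18 of 30 fits that left out a library. Those were replicates 2, 3, 4, 6, 7, 9, 10, 11 and 14 of block A and replicates 1, 4, 7, 9, 10, 11, 12, 14 and 15 of block B.

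DKK1, a secreted inhibitor that binds LRP5 and LRP6, ran from 0.113 to 0.498 CPM in block A and from 0.0767 to 1.48 CPM in block B, with medians of 0.216 and 0.435. These values are 1 to 18 counts per library. The difference was 0.92 ± 0.28 (adjusted p = 0.0304, edgeR). It is given as a description, because no library of block A, with at most 9 counts, reached the filter's level (a count of 10 at median depth), so that the gene was tested only through libraries of blocks B and C. Without block C, or at a mean of at least 1 CPM, it was not tested, and the call was lost without replicate 2, 4 or 7 of block A or replicate 2 or 15 of block B. The remaining antagonists did not pass: SFRP4 differed by 0.52 ± 0.19 (adjusted p = 0.0626, edgeR), SFRP1 by -0.04 ± 0.15, FRZB by -0.12 ± 0.14 and DKK3 by -0.24 ± 0.11. DKK3 passed, as lower in block B, when the 3 libraries that stand apart were left out.

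AXIN2, the feedback scaffold, ran from 30.3 to 43.3 CPM with a median of 39.4 in block A and from 39.7 to 59.5 CPM with a median of 44.5 in block B, and block C had 48.2 and 52.9 CPM. All 16 libraries of block B lay above the median of block A, and 11 lay above its maximum. The difference was 0.28 ± 0.06 (adjusted p = 0.00209, edgeR). AXIN1 and the transcription factor LEF1 differed by -0.05 ± 0.05 and 0.12 ± 0.10 and did not pass. AXIN2, FZD6, LGR6, RSPO2, WNT9A, WNT9B and WNT16 passed in every one of the 30 fits that left out 1 library of block A or block B.

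**Figure D3:**
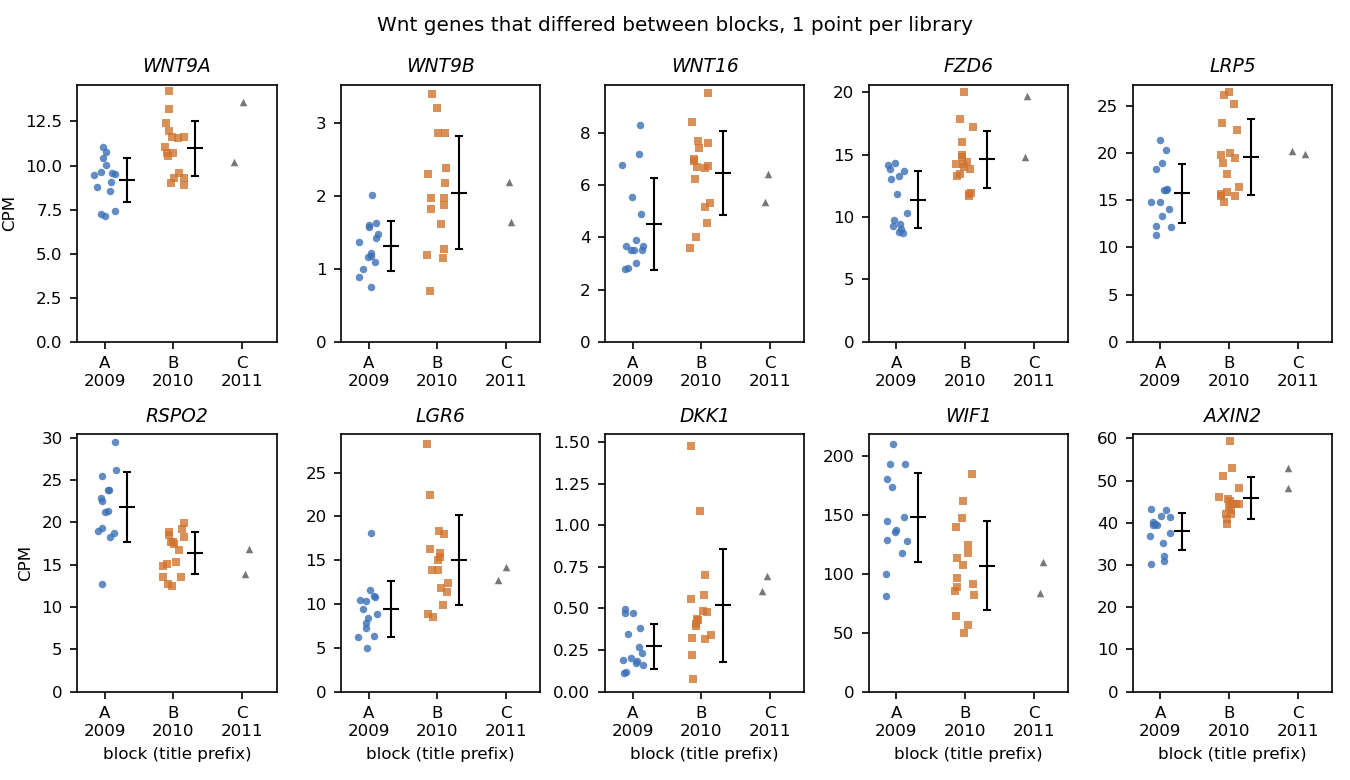
CPM in each library for the 10 Wnt genes that passed in the block comparison, 1 point per library by block, with the mean and SD (black) beside blocks A and B. AXIN2 and FZD6 in block B lie wholly above the median of block A, RSPO2 wholly below it, and every gene's groups overlap.

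Other genes of the pathway were taken from a list of 63, of which 61 were rows of the table. In the same comparison 16 of 59 tested rose and 2 fell (30.5%), beside 12.5% of all genes. The median difference of the 59 was 0.11. MYC, a target gene of β-catenin, rose by 0.76 ± 0.11 from a median of 3.10 to 5.65 CPM (adjusted p = 0.000147, edgeR). PTK7, a Wnt co-receptor of planar polarity, rose by 0.64 ± 0.11 from 18.6 to 29.7 CPM, and NKD1, a feedback inhibitor that binds Dishevelled, by 0.44 ± 0.08. DRAXIN, a secreted axon guidance protein that antagonises Wnt signalling, rose by 1.29 ± 0.26 from 2.04 to 3.54 CPM, and CTNNBIP1, an inhibitor of β-catenin, by 0.29 ± 0.06. The genes that fell were ROR1, a receptor for WNT5A, by 0.40 ± 0.11, and PYGO2, a nuclear co-factor of β-catenin, by 0.18 ± 0.05.

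Cell type markers moved with the block as well. Of 12 immature neuron genes, 11 were higher in block B, and their summed level ran from 1297 to 2675 CPM in block A and from 1568 to 4098 CPM in block B. Radial glia genes were higher in 4 of 8 (summed 578 to 951 and 757 to 1295 CPM), oligodendrocyte precursor genes in 3 of 7 (975 to 1762 and 1224 to 1941 CPM), and striatal genes in 3 of 6 (57.8 to 122 and 72.5 to 574 CPM). Cajal-Retzius genes were higher in 2 of 5 tested (272 to 473 and 136 to 741 CPM) and microglia genes in 2 of 7 (178 to 307 and 165 to 261 CPM). Only those 2 microglia genes had a positive difference, and the median over the 7 was -0.08. The median summed microglia level was 214 CPM in block A and 198 CPM in block B. Of 9 mature myelin genes only HAPLN2, a link protein of myelinated axons, was lower, with a difference of -1.17. Of 9 mural and fibroblast genes 1 was higher (summed 204 to 674 and 269 to 599.6 CPM), as was 1 of 8 endothelial genes, and 1 of 6 dentate granule genes was lower. No astrocyte, choroid plexus, CA pyramidal or thalamic gene on the lists passed in this edgeR fit. The part of these markers in the differences of the Wnt genes was not tested beyond the covariate fits that follow. With a score of the immature neuron genes as a covariate, 0 of 49 Wnt genes and 1 of all 23977 genes passed. With a score of the mural and fibroblast genes as a covariate, LGR6 alone of the Wnt genes passed (0.65, adjusted p = 0.0461, edgeR), with 529 of all genes.

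The 9 libraries of block B with high title numbers were compared with the 7 with low numbers, because all of block A has low numbers. None of 44 tested Wnt genes passed in edgeR's quasi-likelihood test, and none in DESeq2. Of all 21488 genes 0 passed in edgeR (0%), with 3023 at an unadjusted p under 0.05, and 198 in DESeq2. The only Wnt gene at an unadjusted p under 0.05 was WNT7B, a ligand of cortical and vascular development, with a difference of -0.39 (high minus low, adjusted p = 0.310, edgeR).

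Restricting the block comparison to low title numbers (14 libraries against 7) left 5 of the 10 calls. These were 5 of 46 tested Wnt genes, beside 1162 of all genes, where 2987 of all genes passed over all libraries. AXIN2 differed by 0.31, FZD6 by 0.40, LGR6 by 0.80, LRP5 by 0.44 and WIF1 by -0.71. RSPO2, WNT9A, WNT9B and WNT16 had differences of -0.38, 0.25, 0.57 and 0.47 with adjusted p of 0.054 to 0.178 (edgeR), and DKK1 was not tested. The sizes thus stayed close to those over all libraries or were larger, with fewer libraries.

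A second set of comparisons followed the Wnt genes along a score of immature neurons, since the study concerns development and the labels give no age within the class. The score is the mean z-score of 12 immature neuron genes, none of them a Wnt gene studied here, and its mean was -0.69 in block A and 0.45 in block B. In libraries with a higher score, 12 of 40 tested Wnt genes were higher and 5 lower, and every one of the 7 ligands that passed was higher. This is 42.5%, beside 33.4% of 19959 genes (16.6% up and 16.8% down), with a median slope of 0.08 for the Wnt genes and one close to 0 for all genes. Slopes are log2 changes per SD of the score, by edgeR's quasi-likelihood test. Markers of other cells moved with the same score: 6 of 9 mural and fibroblast genes, 5 of 7 oligodendrocyte precursor genes, 5 of 8 radial glia genes, 3 of 8 endothelial genes and 2 of 3 tested Cajal-Retzius genes were higher, while 4 of 9 mature myelin genes and 3 of 8 astrocyte genes were lower. Of 7 microglia genes 2 were higher and 2 lower. With a second term for the mural and fibroblast genes 13 of the 40 Wnt genes passed, beside 4459 of all genes. The part of these markers was not tested.

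**Figure D4:**
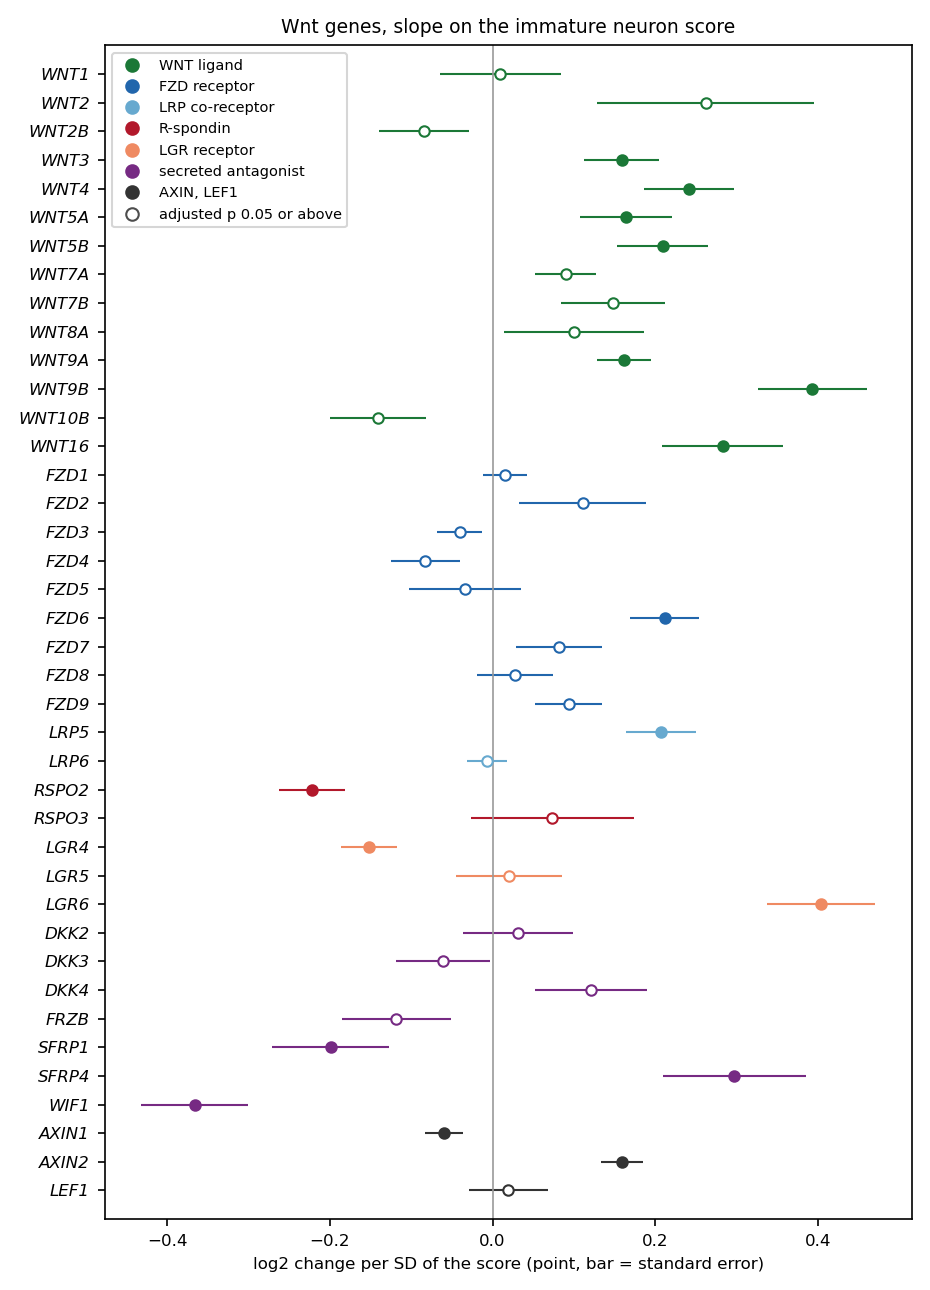
Slope of each of the 40 tested Wnt genes on the immature neuron score, as log2 change per SD of the score with bars of 1 standard error, coloured by role. Filled points passed the adjusted threshold: 12 lie above 0, led by LGR6 and WNT9B, and 5 below it, led by WIF1.

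The 3 steepest slopes were those of genes that also differed between blocks, and both fits share the same libraries. LGR6 had a slope of 0.40 ± 0.07 (adjusted p = 1.42e-05, edgeR), WNT9B 0.39 ± 0.07 and WIF1 -0.37 ± 0.07. SFRP4, a secreted Wnt-binding antagonist, had 0.30 ± 0.09 (adjusted p = 0.00827, edgeR), and ran from 0.414 to 2.37 CPM in block A and from 0.863 to 2.49 CPM in block B. WNT16 had 0.28 ± 0.07 and WNT4 0.24 ± 0.06. For RSPO2 the slope was -0.22 ± 0.04 and for FZD6 0.21 ± 0.04.

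The other genes that passed had smaller slopes. WNT5B and LRP5 each had 0.21, with SE of 0.06 and 0.04. WNT5A, WNT9A, WNT3 and AXIN2 each had 0.16, with SE of 0.06, 0.03, 0.05 and 0.03. Among the genes lower at a high score, SFRP1 had -0.20 ± 0.07, LGR4 -0.15 ± 0.03 and AXIN1 -0.06 ± 0.02. The AXIN1 call was lost in 21 of 32 fits that left out a library. The SFRP1 call was lost without replicate 1 of block A, without replicate 1, 11, 15 or 16 of block B, or without either library of block C. The WNT5A call was lost without replicate 12 of block B or replicate 1 of block C, and the WNT3 call without replicate 15 of block B. Without the 3 libraries that stand apart AXIN1 and SFRP1 no longer passed (-0.04 and -0.18), while DKK3, FRZB and WNT7B did.

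By role, 7 of 14 tested ligands passed, 1 of 9 Frizzled receptors, 1 of 2 co-receptors, 1 of 2 R-spondins, 2 of 3 LGR receptors, 3 of 7 antagonists and 2 of 3 intracellular genes. LGR6 and LGR4 had slopes of opposite sign, as had SFRP4 against WIF1 and SFRP1. LEF1 had a slope of 0.02 ± 0.05 and DKK3 of -0.06 ± 0.06, neither past the threshold.

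Fewer Wnt genes passed within each block, and with block as a factor. Among the 14 libraries of block A none of 39 Wnt genes passed in edgeR, where 119 of all genes did. Among the 16 of block B 4 of 40 passed, beside 1002 of all genes. Those 4 were WNT9B (0.46), LGR6 (0.30), SFRP1 (-0.33) and WIF1 (-0.41), each per SD of the score in those libraries. In block A these genes had slopes of -0.03, 0.25, 0.06 and -0.02. With block as a factor over all libraries, 6 of 40 Wnt genes passed, beside 2129 of all genes. Those 6 were WNT9B (0.48), LGR6 (0.43), WNT4 (0.32), LRP5 (0.23), LGR4 (-0.24) and WIF1 (-0.44).

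**Figure D5:**
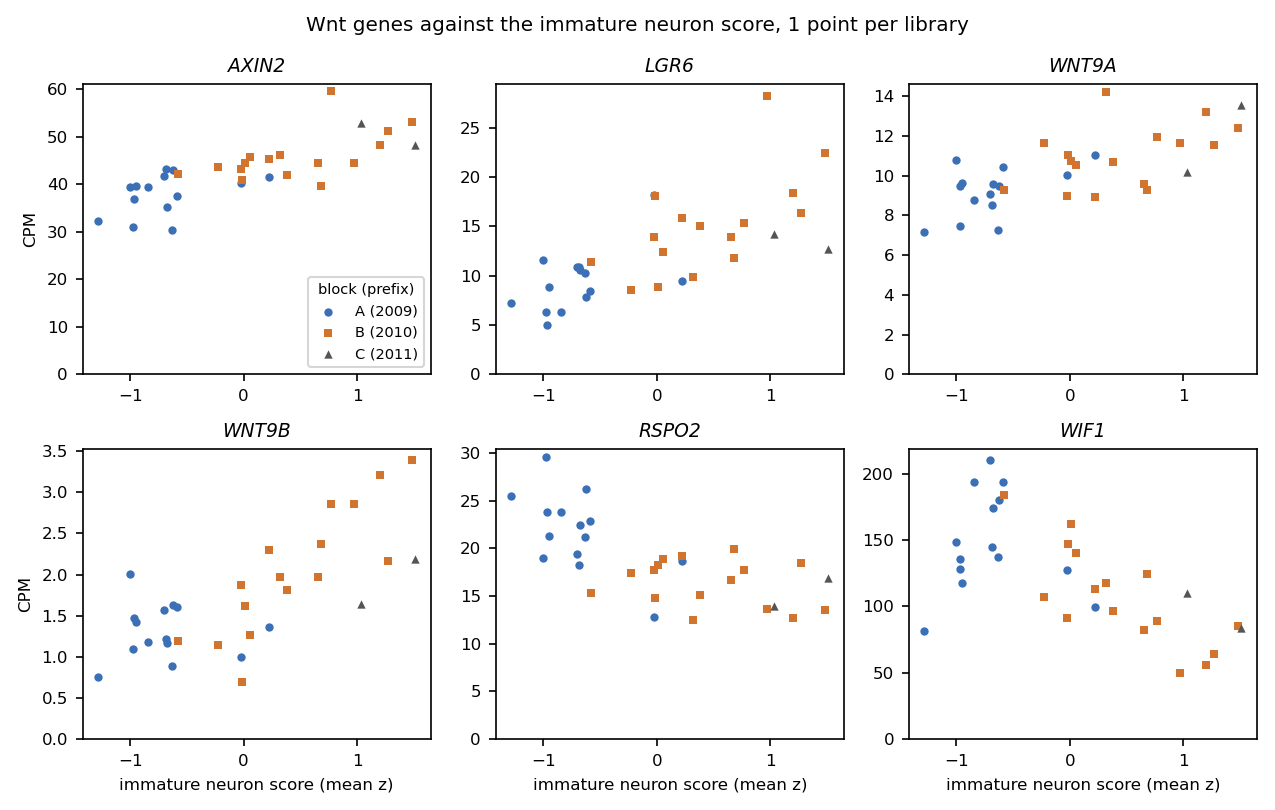
CPM of 6 Wnt genes against the immature neuron score (mean z over 12 genes), 1 point per library with colour and shape for the block. AXIN2, LGR6, WNT9A and WNT9B are higher and RSPO2 and WIF1 lower at high scores, and libraries of block A fill the low end of the score.

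Of the other pathway genes, 19 of 57 tested were higher and 9 lower at a high score (49.1%). Over all genes 33.4% passed in that fit (16.6% up and 16.8% down). The genes with the smallest p among those higher were PTK7 (0.42 ± 0.03), DRAXIN (0.88 ± 0.07), MYC (0.42 ± 0.05), AMER1, an adaptor of the β-catenin destruction complex (0.22 ± 0.03), and DAAM1, a formin of the polarity branch (0.16 ± 0.02). Among those lower were DVL1, a Dishevelled protein that relays the signal from Frizzled (-0.11 ± 0.02), LRP4, a relative of the co-receptors (-0.14 ± 0.03), the kinase CSNK1D (-0.14 ± 0.03), DAAM2 (-0.20 ± 0.05) and PYGO2 (-0.10 ± 0.03). The related formins DAAM1 and DAAM2 had slopes of opposite sign.

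Because AXIN2 is a target gene of β-catenin signalling, the other Wnt genes were last set against its level. In libraries with more AXIN2, 11 of 39 tested Wnt genes were higher and 2 lower (33.3%), beside 20.5% of 19958 genes (10.7% up and 9.9% down). The ligands that passed were WNT9B (0.39 ± 0.07), WNT4 (0.22 ± 0.06), WNT5B (0.21 ± 0.06), WNT7B (0.18 ± 0.06), WNT9A (0.17 ± 0.03), WNT3 (0.16 ± 0.05) and WNT7A (0.11 ± 0.04), as log2 change per SD of AXIN2. Of the receptors, LGR6 had 0.31 ± 0.08, FZD6 0.18 ± 0.05 and LRP5 0.17 ± 0.05. Of the modulators, SFRP4 had 0.30 ± 0.09, and RSPO2 and SFRP1 each had -0.20, with SE of 0.04 and 0.07. LEF1 had a slope of 0.00 ± 0.05. Cell type markers moved with AXIN2 too: 10 of 12 immature neuron genes, 6 of 9 mural and fibroblast genes, 5 of 8 radial glia genes and 4 of 7 oligodendrocyte precursor genes were higher, and 6 of 9 mature myelin genes were lower.

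AXIN2 itself differed between blocks and followed the immature neuron score. None of 38 tested genes passed within block A, and none of 39 within block B, with block as a factor, or with the score of immature neurons added as a covariate, where 0, 90, 297 and 18 of all genes passed in edgeR. The covariation with AXIN2 therefore cannot be told apart from the difference between blocks. Leaving out 1 library ended the SFRP1 call in 8 of 32 fits, the WNT7A call in 6, the WNT7B call in 2 and the WNT3 call in 1. For WNT7B these were replicate 2 of block A and replicate 1 of block B, and its lowest slope over the 32 fits was 0.07. Without the 3 libraries that stand apart WNT7A no longer passed (0.095), while FZD8, WIF1 and WNT16 did.

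In the reference annotation mChlSab1.0.hap1, 12 of the 51 genes overlap another gene. WNT1 and WNT10B overlap each other, WNT2B overlaps ST7L, WNT5B overlaps FBXL14, and LRP6 overlaps BCL2L14. Since no source used here gives the strand setting, reads of these pairs may not be separable. FZD6, LGR6, WIF1 and SFRP1 overlap small RNA genes and WNT4 a long non-coding RNA, while LEF1 and FZD10 each overlap a protein-coding gene named only by a number.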

How the data were processed

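Hippocampal total RNA was depleted of ribosomal RNA (Ribo-Zero Gold) and made into stranded TruSeq libraries, per the labels' protocols. The deposited table holds read counts per gene, not normalized by the authors. STAR and HTSeq were used per the submitters' processing notes, but no source used here gives their versions, the genome build, the annotation or the strand setting. The 5 rows that name no gene entered neither library sizes nor tests, and the row of reads in no feature held 57.0% ± 3.61 (SD, n = 32) of all reads counted. Every one of the 496 pairs of libraries differed beyond counting noise (chi-square per degree of freedom at least 4.34). All 51 symbols were found in the RefSeq table of assembly mChlSab1.0.hap1.

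Blocks A, B and C are the libraries whose titles begin with 2009, 2010 and 2011. Counts were normalized by TMM (trimmed mean of M-values) and tested with edgeR 4.0.16 (quasi-likelihood, R 4.3.3) on the whole table, with Benjamini-Hochberg adjustment over all genes tested and a threshold of 0.05. Genes were kept by filterByExpr (minimum count 10, minimum total 15, proportion 0.7). The block fit holds all 32 libraries. Block C adds to the estimate of spread, and its 2 libraries are the smallest group of the filter on low counts. Without block C 44 Wnt genes were tested in place of 49. CPM use the scaled library sizes. A score is the mean z of log2 CPM (prior count 2) over a marker list. The Wnt genes, the marker lists and the tests were chosen with earlier results of these data known. All Wnt genes were accounted for, by role where the mean CPM was at least 1, with full statistics for those called between blocks or with the 8 largest called slopes on the score, and up to 5 other pathway genes with the smallest p per direction and fit. Some differences are printed without their p where they did not pass.

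On simulated counts the block fit found 72% of genes changed by 0.5 and 96% of those changed by 1 (23589 genes), and the score fit 71% at a slope of 0.25 and 96% at 0.5 (19946 genes). Alternatives were other size factors, other filters, DESeq2 1.42.0, covariates and subsets of libraries. Leaving out the 3 libraries that stand apart, leaving out each library in the score and AXIN2 fits, and the immature neuron score as a covariate in the AXIN2 fit were chosen after seeing the data. Figures were drawn with matplotlib 3.10.9.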

Additional observations from a re-analysis of the deposited data

Results flagged for a closer look

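Within each set of title numbers of block B, the highest or lowest library was compared with the nearest other, and 4 of 80 groups had a gap beyond Dixon's critical value, where chance gives about 1 in 20. FZD7 had 49.5 CPM in replicate 1, next to 29.9 CPM in the nearest library with a low number. Replicate 15 had the highest level of WNT3, 16.7 CPM next to 11.6 CPM, and of FZD6, 20.1 CPM, among the libraries with high numbers. RSPO3 had 37.4 CPM in replicate 13, the highest library with a high number. Without replicate 15 the slope of WNT3 on the immature neuron score no longer passed, while FZD6 still passed in the block comparison.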

How the results depend on the processing

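Counts below are of Wnt genes that passed. Between blocks 10 passed, and 9 to 13 did so under 8 alternatives (other size factors or filters, DESeq2, no block C, library total or no-feature share as a covariate, no libraries that stand apart). Low title numbers alone left 5, a mural and fibroblast covariate 1 and an immature neuron covariate 0. Over all genes 2987 passed, and these settings gave 1162, 529 and 1. For the other pathway genes, 18 in all, these left 9, 4 and 0. With that last covariate LRP5 (-0.0074), WIF1 (0.10) and WNT9B (-0.092) changed sign. On the immature neuron score 17 passed, with block as a factor 6, within block A 0 and within block B 4. For the 28 other pathway genes these settings gave 15, 1 and 6. Over all genes 6670 passed, and in the same order 2129, 119 and 1002. Within block A the slopes of SFRP1 (0.060), WNT3 (-0.046) and WNT9B (-0.025) changed sign. Against AXIN2 13 passed, with block as a factor 0 and with a mural and fibroblast covariate 3. Within block A 0 passed, within block B 0 and with the immature neuron score 0. Over all genes 4101 passed against AXIN2, and in the same order 297, 1013, 0, 90 and 18. Fits within a block or at low title numbers held fewer libraries, while fits with a covariate or with block as a factor held all 32. The cause of the lost calls was not tested.

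Leaving out 1 library at a time gave 7 to 12 Wnt genes and 15 to 21 other pathway genes between blocks, 0 to 0 between number sets, 15 to 18 and 26 to 30 on the immature neuron score, and 10 to 15 against AXIN2. No paired analysis was possible because replicate numbers only name libraries in order of deposition. Depth limits the 11 genes below 1 CPM.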
